A study of Mus musculus with 14 samples.

Results

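The expression of 10 genes of the pericellular matrix was followed by RNA-seq in mouse mammary epithelial cells: Has2, which encodes a hyaluronan synthase, and the core proteins of proteoglycans encoded by Vcan (versican), Bgn (biglycan), Dcn (decorin), Sdc1, Sdc2, Sdc3 and Sdc4 (the syndecans), Gpc1 (glypican 1) and Hspg2 (perlecan). They were taken by gene symbol, each with a row in both deposited tables, and are 10 of the 23284 genes listed there. EpH4 is a line of mammary gland epithelial cells, and EpRas is its derivative transformed with H-Ras. Untransfected cells of both lines were left untreated or given 1 ng/ml TGF-β3 for 48 h, with 2 libraries in each of the 4 groups. EpH4 cells grew in medium with 10% fetal bovine serum and EpRas cells in medium with 4%, so the transformation and the serum cannot be told apart in the comparison of the lines. EpRas cells were also transfected with a negative control siRNA (siNC) or with siRNAs against Etv4 and Etv5, transcription factors of the ETS family. Pair 1 combined siEtv4_1 with siEtv5_1 and pair 2 combined siEtv4_2 with siEtv5_2, each with and without TGF-β, which gave 6 libraries with 1 library for each condition. The transfected and untransfected samples were processed independently, so their levels were not compared by a test.

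Hyaluronan is a long sugar chain without a protein core that Has enzymes spin out through the plasma membrane, and it is bound at the cell surface by Cd44. Proteoglycans carry sulfated sugar chains on a core protein. Syndecans span the membrane and glypicans are attached to it by a lipid, both mainly with heparan sulfate chains that hold growth factors and bind fibronectin. Perlecan lies in the basement membrane, while versican, biglycan and decorin are secreted and carry chondroitin or dermatan sulfate. In mammary epithelium syndecan 1 is an abundant surface heparan sulfate proteoglycan, and hyaluronan production is a known response to TGF-β.

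Where values of a gene were whole multiples of the value of 1 read, reads were recovered. From such genes the depth was estimated at 3240000 to 7210000 reads in the untransfected and 6740000 to 11700000 reads in the siRNA libraries. The luminal keratins Krt8 and Krt18 were at 561 FPKM or more in each untransfected library, while the luminal keratin Krt19 was listed at 0 in 4 of the 8 and reached 37.4 FPKM, and markers of other cell types were mixed. Of the basal markers Krt5 was at most 0.0856 FPKM, while Krt14 was at 62.2 to 851 FPKM, Krt17 at up to 34.6 and Trp63 at up to 8.60. Of the fibroblast markers Thy1 and Dpt were listed at 0 in all 8 libraries, while Col1a1 reached 224 and Pdgfrb 8.24 FPKM. Of the leukocyte markers Ptprc was listed at 0 in all 8 and Cd68 was at 0.292 to 7.13 FPKM. Of Etv4 mRNA 19.6 to 48.5% of the siNC level was left after knockdown, and of Etv5 mRNA 14.2 to 23.2%.

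The sequence next to the start sites is shown for some of the syndecan genes. RefSeq promoters (build GRCm38.p6, the assembly also called mm10) were matched for 6 of the 10 genes, namely Vcan, Bgn, Sdc1, Sdc3, Sdc4 and Hspg2, each from 250 bases before to 50 bases after the start. Sdc1, Sdc3 and Sdc4 are printed because their mean levels did not all move the same way with TGF-β, though a difference between the genes was not tested. Sdc1 lies at chr12:8771146-8771445 on the plus strand, Sdc3 at chr4:130792287-130792586 on the plus strand and Sdc4 at chr2:164443139-164443438 on the minus strand. Capitals mark the GC box GGGCGG on either strand, a motif added after the sequences had been read.
Sdc1: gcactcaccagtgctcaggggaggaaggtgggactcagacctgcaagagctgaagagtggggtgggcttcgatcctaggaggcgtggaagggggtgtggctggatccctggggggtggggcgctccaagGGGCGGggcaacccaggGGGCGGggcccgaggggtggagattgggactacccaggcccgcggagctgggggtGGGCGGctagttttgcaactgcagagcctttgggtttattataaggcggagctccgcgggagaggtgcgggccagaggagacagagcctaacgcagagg
Sdc3: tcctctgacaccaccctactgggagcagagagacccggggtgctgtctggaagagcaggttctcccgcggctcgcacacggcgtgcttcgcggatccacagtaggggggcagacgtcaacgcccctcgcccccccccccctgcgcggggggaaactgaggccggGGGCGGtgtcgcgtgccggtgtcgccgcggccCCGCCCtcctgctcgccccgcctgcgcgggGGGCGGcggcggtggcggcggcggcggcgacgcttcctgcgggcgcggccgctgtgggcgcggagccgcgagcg
Sdc4: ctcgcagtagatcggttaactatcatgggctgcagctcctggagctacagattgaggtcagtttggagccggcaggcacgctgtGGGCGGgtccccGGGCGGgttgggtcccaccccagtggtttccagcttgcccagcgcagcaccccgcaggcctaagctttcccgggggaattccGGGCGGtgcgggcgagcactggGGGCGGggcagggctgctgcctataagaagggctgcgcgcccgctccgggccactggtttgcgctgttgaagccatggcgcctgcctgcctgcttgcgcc
The GC box was found in all 6 matched promoters, 3 times each in those of Sdc1, Sdc3 and Bgn, 4 times in that of Sdc4, 5 times in that of Hspg2 and 2 times in that of Vcan, and 35.7% of the 32851 RefSeq promoters of this length hold at least 1. The GC content was 66.3% for Sdc1, 77.7% for Sdc3 and 67.7% for Sdc4. An ETS motif (CCGGAAG), an AP-1 motif (TGANTCA) and an E-box (CACCTG) were searched on both strands, only as written here. None is part of another, and none had a match in any of the 6 promoters. Of all promoters 8.86%, 7.81% and 20.2% hold these 3 strings, respectively. Other forms of these sites were not searched, so the lack of a match does not mean that the promoters hold no such site.

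The levels of the 10 transcripts were compared per length, in FPKM. Of the 10 genes 7 reached 5 FPKM in at least 1 untransfected library and were tested, and Has2 reached this level only in the libraries with TGF-β, so its entry into the test rests on the group where it is high. Sdc1 had the highest mean in all 4 groups, at 208 ± 52.4 (SD, n = 2) FPKM in EpH4 cells, 382 ± 86.0 in EpH4 cells with TGF-β, 169 ± 55.5 in EpRas cells and 170 ± 55.4 in EpRas cells with TGF-β. In EpH4 cells it was followed by Sdc4, Gpc1 and Hspg2, with means of 109, 70.0 and 35.0 FPKM and no overlap between neighbours. Sdc3 and Sdc2 came next in EpH4 cells, at 14.8 and 14.8 FPKM, and their libraries overlapped. In EpRas cells Gpc1 was second, at 156 ± 22.2 FPKM, and its libraries overlapped those of Sdc1. Has2 was the seventh of the 10 in both untreated groups, and with TGF-β the sixth in EpH4 cells and the fourth in EpRas cells, where its libraries overlapped those of Hspg2.

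**Figure D1:**
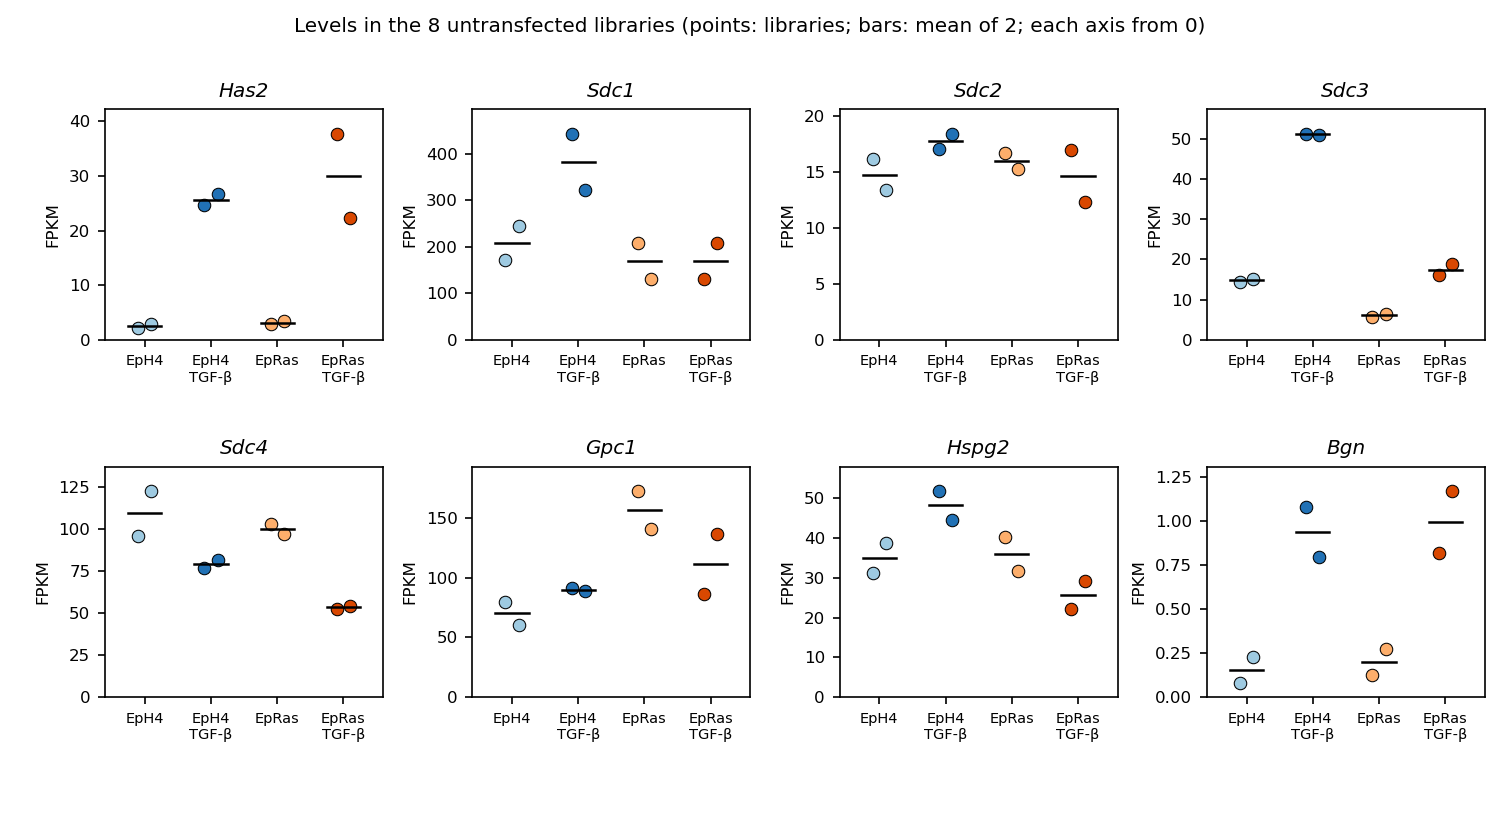
FPKM (vertical axes, linear, each starting at 0) of 8 of the genes in the 4 untransfected groups; points are libraries and horizontal bars are means of 2. Has2 and Bgn were higher in all TGF-β libraries of both lines, and Sdc3 was lower in EpRas than in EpH4 cells at the same treatment.

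Of the secreted chondroitin and dermatan sulfate proteoglycans, Bgn had the highest FPKM in each untransfected library with TGF-β. Vcan, on chromosome 13, was at most 0.216 FPKM and Dcn, on chromosome 10, at most 0.175 FPKM over the untransfected libraries, with Dcn listed at 0 in 7 of the 8. In the siRNA libraries they did not exceed 0.120 and 0.303 FPKM. Reads were not recovered for these genes, and both stayed under the level tested. Bgn, on chromosome X, encodes a small leucine-rich proteoglycan that binds collagen. It had 1 and 4 reads in the untreated EpH4 libraries and 10 and 11 reads with TGF-β, and 1 and 4 reads in the untreated EpRas libraries and 9 and 10 reads with TGF-β. The groups with and without TGF-β did not overlap in either line. Adjusted for depth, the ratio with TGF-β to without was 5.51 (95% exact interval 2.02 to 18.7, Clopper-Pearson) in EpH4 and 4.34 (1.57 to 14.9) in EpRas cells. These intervals cover counting error only. Bgn stayed at or below 1.17 FPKM, so it did not enter the test over all genes.

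Of the hyaluronan synthase genes Has1, Has2 and Has3, only Has2 was among the genes tested. To see whether TGF-β changed its level in both lines, Has2 was examined first (chr15:56665627-56694546 in the authors' table, minus strand). It was at 2.23 and 2.92 FPKM in untreated EpH4 cells and at 24.6 and 26.6 FPKM with TGF-β, from 53, 94, 422 and 679 reads. In EpRas cells it was at 2.83 and 3.42 FPKM without and 37.7 and 22.2 FPKM with TGF-β, from 41, 92, 768 and 352 reads. All libraries with TGF-β lay above all libraries without, and the lines overlapped at either treatment. Has2 rose 9.95-fold in EpH4 cells, by 2.90 ± 0.25 (SE) on the log2(FPKM + 1) scale (limma, adjusted p = 0.000683), and 9.58-fold in EpRas cells, by 2.86 ± 0.25 (adjusted p = 0.00144). The increase in EpRas minus that in EpH4 cells was -0.04 on the log2 scale, with a 95% interval from -0.88 to 0.80 (adjusted p = 0.981). EpRas against EpH4 cells gave 0.21 (interval -0.38 to 0.80) without and 0.17 (interval -0.42 to 0.76) with TGF-β on the log2 scale. When only the 4 EpRas libraries were fitted, the adjusted p for TGF-β was 0.0521.

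Sdc3 (chr4:130792537-130826318, plus strand), the syndecan best known from nerve and muscle, differed by both line and treatment. It was at 14.5 and 15.1 FPKM in EpH4 cells, at 51.3 and 51.1 in EpH4 cells with TGF-β, at 5.80 and 6.52 in EpRas cells and at 16.1 and 18.8 in EpRas cells with TGF-β. The TGF-β libraries were the higher ones in each line, and the EpRas libraries were below the EpH4 libraries at each treatment. With TGF-β, Sdc3 rose 3.46-fold in EpH4 cells (log2 1.72 ± 0.15, adjusted p = 0.000683, limma) and 2.83-fold in EpRas cells (1.36 ± 0.15, adjusted p = 0.00347). These changes differed by -0.36 on the log2 scale (interval -0.86 to 0.13), which did not pass the test (adjusted p = 0.586). It was 2.40-fold lower in EpRas than in EpH4 cells without TGF-β (adjusted p = 0.00272) and 2.94-fold lower with TGF-β (adjusted p = 0.000514). These differences between the lines passed in each of the alternatives run, whereas the change in EpRas cells had an adjusted p of 0.0776 when only the EpRas libraries were fitted.

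Sdc4 (chr2:164424247-164443188, minus strand), a syndecan of focal adhesions, moved the other way. EpH4 cells had 96.0 and 122 FPKM without and 76.7 and 81.6 with TGF-β, and EpRas cells had 103 and 96.7 without and 52.3 and 54.4 with TGF-β. In both lines the TGF-β libraries were the lower ones, with no overlap. Sdc4 fell by 0.89 ± 0.16 on the log2 scale in EpRas cells (adjusted p = 0.0304, limma), a 1.87-fold lower mean. In EpH4 cells the log2 difference was -0.45 ± 0.16 (adjusted p = 0.151). The difference between the lines' changes was -0.44 (interval -0.99 to 0.11) and did not pass (adjusted p = 0.553). Between the lines with TGF-β the EpRas libraries were below the EpH4 libraries, by -0.56 on the log2 scale (adjusted p = 0.05002, just above the threshold), and the adjusted p was 0.035 to 0.227 over the alternatives. The call in EpRas cells was lost whichever of the 4 EpRas libraries was left out, with adjusted p of 0.195 and 0.139 without untreated replicate 1 or 2 and 0.0953 and 0.0612 without TGF-β replicate 1 or 2, and it was lost with only the EpRas libraries (0.157).

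Sdc1 (chr12:8771396-8793687, plus strand), the main syndecan of epithelia, was measured at 171 and 245 FPKM in EpH4 cells, 443 and 322 with TGF-β, 208 and 130 in EpRas cells and 130 and 209 in EpRas cells with TGF-β. The EpRas libraries with and without TGF-β overlapped fully, while the EpH4 libraries with TGF-β were above those without. The log2 difference with TGF-β was 0.88 ± 0.34 in EpH4 cells (adjusted p = 0.166, limma) and 0.00 ± 0.34 in EpRas cells (interval -0.78 to 0.79). The difference of these changes, -0.87 (interval -1.99 to 0.24), did not pass (adjusted p = 0.558). With TGF-β, Sdc1 was 2.25-fold lower in EpRas than in EpH4 cells (log2 -1.19 ± 0.34, adjusted p = 0.0441). That call did not hold without EpH4 TGF-β replicate 1 or 2 (adjusted p = 0.245 and 0.0974) or EpRas TGF-β replicate 1 (0.187), and the adjusted p was 0.03 to 0.245 over the alternatives. Without TGF-β the difference was -0.32 (interval -1.10 to 0.47).

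Sdc2 (chr15:32920723-33034721, plus strand), a syndecan common in mesenchymal cells, varied least, between 12.3 and 18.4 FPKM over the 8 libraries. Its largest log2 difference in the 4 comparisons was -0.28 (interval -0.72 to 0.17), for EpRas against EpH4 cells with TGF-β, and none passed the test. As a share of the summed FPKM of the 4 syndecans, Sdc4 made up 31.5 ± 0.960% (SD, n = 2) in EpH4 cells and 15.2 ± 2.99% with TGF-β, and 34.9 ± 5.78% in EpRas cells and 21.4 ± 4.07% with TGF-β. Sdc3 made up 4.34 ± 0.743% and 9.76 ± 1.48% in EpH4 cells, and 2.18 ± 0.626% and 6.91 ± 0.749% in EpRas cells, without and with TGF-β. Sdc1 held 57.4 to 71.7% in the group means. In both lines the share of Sdc4 was lower and that of Sdc3 higher with TGF-β than without, which was not tested. A share also falls when another syndecan is higher. In EpH4 cells the mean of Sdc4 was 109 FPKM without and 79.1 with TGF-β, and that of Sdc1 208 and 382 FPKM.

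**Figure D2:**
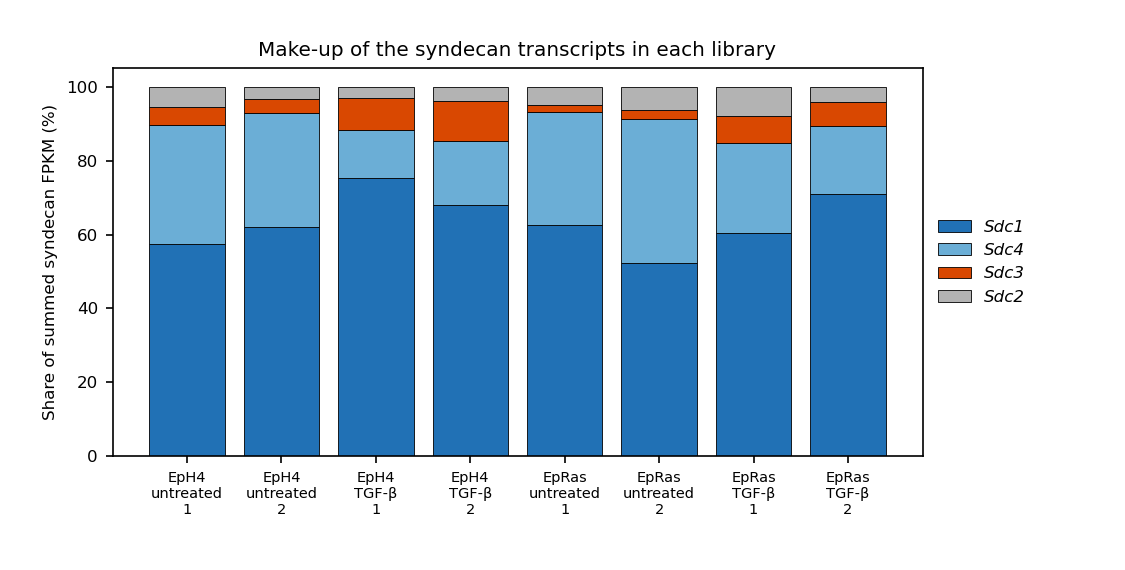
Share (percent, vertical axis from 0) of each syndecan in the summed FPKM of Sdc1, Sdc2, Sdc3 and Sdc4, with 1 stacked bar for each of the 8 untransfected libraries. Sdc4 took 31.5% on average in untreated EpH4 cells and 15.2% with TGF-β, where the FPKM of Sdc1 was also higher. Sdc1 was the largest share in every library.

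The glypican and the basement membrane proteoglycan differed between the lines. Gpc1 (chr1:92831686-92860196, plus strand) had 79.4 and 60.7 FPKM in EpH4 cells, 91.2 and 88.7 with TGF-β, 172 and 141 in EpRas cells and 86.5 and 137 in EpRas cells with TGF-β. Without TGF-β both EpRas libraries were above both EpH4 libraries, and with TGF-β the lines overlapped. Gpc1 was 2.23-fold higher in EpRas than in EpH4 cells without TGF-β (log2 1.15 ± 0.25, adjusted p = 0.0202, limma). The adjusted p was 0.117 without EpH4 replicate 2, 0.122 without EpRas replicate 1 and 0.0622 without EpRas replicate 2. With TGF-β the difference was 0.27 (interval -0.32 to 0.86).

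Hspg2 (chr4:137468803-137570630, plus strand) had 31.1 and 38.8 FPKM in EpH4 cells, 51.7 and 44.6 with TGF-β, 40.3 and 31.8 in EpRas cells and 22.2 and 29.3 in EpRas cells with TGF-β. The lines overlapped without TGF-β, and with TGF-β both EpRas libraries were below both EpH4 libraries. In that comparison it was 1.87-fold lower in EpRas cells (log2 -0.89 ± 0.21, adjusted p = 0.0238, limma). The adjusted p was 0.160 and 0.0848 without EpH4 TGF-β replicate 1 or 2 and 0.0946 without EpRas TGF-β replicate 1. No change with TGF-β within a line passed, neither for Gpc1 (log2 0.37 in EpH4 and -0.51 in EpRas cells) nor for Hspg2 (0.46 and -0.47).

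**Figure D3:**
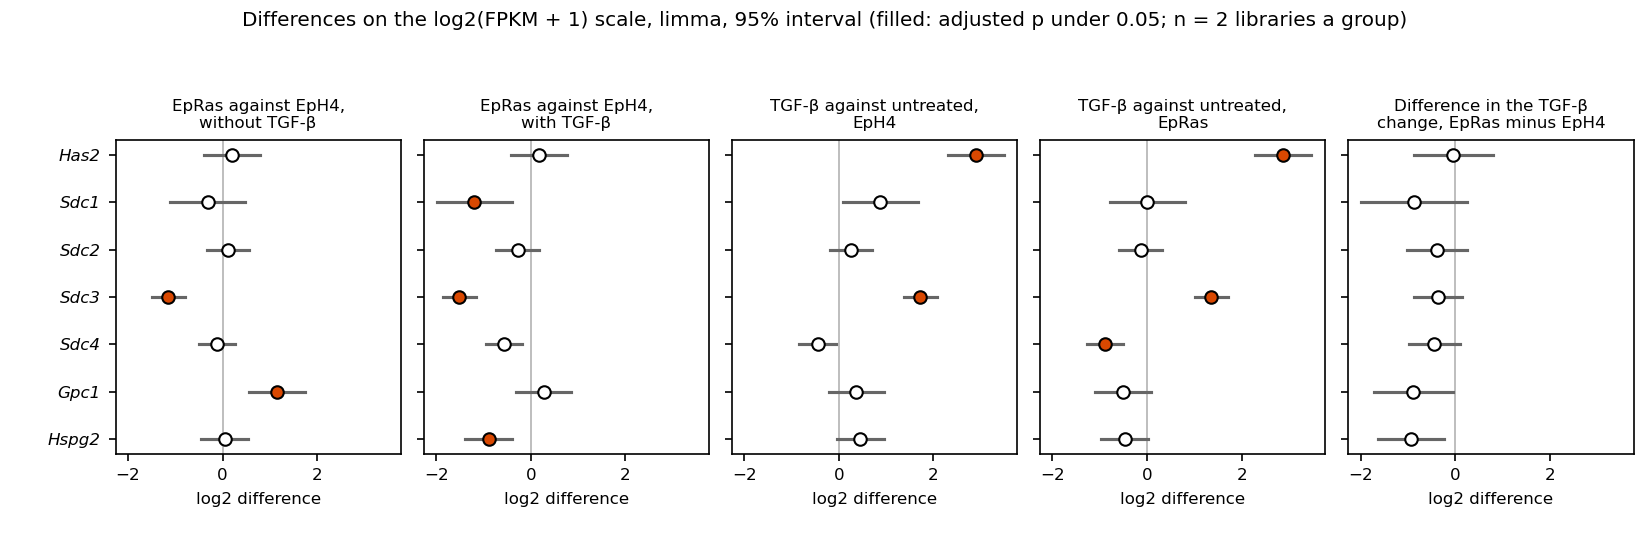
Difference on the log2(FPKM + 1) scale (horizontal axes) of the 7 tested genes in 5 comparisons, with 95% intervals from limma; filled points passed an adjusted p of 0.05. Has2 and Sdc3 passed with TGF-β in both lines, and no gene passed in the rightmost panel, the difference between the lines in the change with TGF-β.

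Counted over the 7 tested genes, 2 passed between the lines without TGF-β (Gpc1 higher and Sdc3 lower in EpRas cells), against 17.6% of the 9100 genes tested. With TGF-β 3 passed, all lower in EpRas cells (Sdc1, Sdc3 and Hspg2), where 21.3% of all genes passed and 12.3% were lower. TGF-β raised 2 of the 7 in EpH4 cells, where 9.4% of all genes changed and 6.48% rose. In EpRas cells it raised 2 and lowered 1, where 3.82% of all genes changed, with 1.9% raised and 1.92% lowered. Has2, which entered the test only through the libraries with TGF-β, was among those raised in both lines. The difference in the TGF-β change between the lines passed for 0 of the 7 by limma, and for 0.802% of all genes, with 2 of the 7 and 10.9% of all genes at an unadjusted p under 0.05. The libraries of the groups did not overlap for 2 and 5 of the 7 genes between the lines without and with TGF-β (61% and 63% of all genes), and for 7 and 5 of them for TGF-β in EpH4 and EpRas cells (60.6% and 39.4% of all genes). The median log2 difference of the 7 genes was 0.04 between the lines without and -0.56 with TGF-β, and 0.46 and -0.14 for TGF-β in EpH4 and EpRas cells, while the medians over all genes lay between -0.02 and 0.00. The study calls the untransfected samples biological replicates, the labels give only replicate numbers, and the p-values measure the spread between these libraries. A change in bulk RNA does not tell fewer cells of a kind from less RNA per cell.

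Markers of other cell types moved with some of these groups. The summed FPKM of 4 basal markers (Krt5, Krt14, Krt17 and Trp63, of which 3 reached 1 FPKM) was led by Krt14. It was 351 to 413 in EpH4 cells, 822 to 890 with TGF-β, 103 to 116 in EpRas cells and 62.9 to 65.2 with TGF-β. The libraries with more Sdc3 in the comparison of the lines were thus also those with more basal marker RNA. With TGF-β both were higher in EpH4 cells, while in EpRas cells Sdc3 was higher and the basal sum lower. The sum of 8 fibroblast markers was 22.7 to 26.8, 222 to 248, 12.1 to 13.6 and 8.42 to 11.2 in the same order. Of these 8 markers 4 reached 1 FPKM, led by Col1a1. Has2, Sdc3 and this sum were all higher with TGF-β in EpH4 cells, while in untransfected EpRas cells the sum was lower with TGF-β. In the siRNA libraries of EpRas cells it was higher with TGF-β under each siRNA, at 5.33 and 11.7 with siNC, 25.4 and 43.9 with pair 1 and 16.6 and 22.6 with pair 2. The sum of 3 leukocyte markers, of which only Cd68 reached 1 FPKM, was 1.71 to 1.90 in EpH4 cells and 0.292 to 2.75 with TGF-β. In EpRas cells this leukocyte sum was 3.81 to 4.84 without and 4.11 to 7.13 with TGF-β. In the siRNA libraries it was 5.20 and 6.52 with siNC, 2.83 and 2.18 with pair 1 and 3.94 and 3.375 with pair 2, without and with TGF-β. The part of these markers in the differences was not tested.

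To examine whether Etv4 and Etv5 contribute to the levels of these genes, the 6 siRNA libraries were compared with each other. Has2 was at 12.0 FPKM with siNC, 3.16 with pair 1 and 6.75 with pair 2, and with TGF-β at 73.0, 31.5 and 44.7 FPKM. Both pairs were below siNC at either treatment, and TGF-β libraries were above untreated ones with each siRNA. The Has2 level was 26.4% of siNC with pair 1 and 56.3% with pair 2 without TGF-β, and 43.1% and 61.2% with TGF-β. Here and for the genes below, both pairs were set against the same siNC library at each treatment. The untransfected EpRas libraries, from the other run, were also below siNC for Has2 (2.83 and 3.42 FPKM without and 37.7 and 22.2 with TGF-β). The reason was not tested. The interval Cuffdiff gives for pair 1 without TGF-β (0.943 to 5.38 FPKM) did not overlap that of siNC (5.90 to 18.1), while the other 3 intervals overlapped those of siNC. The ratio with to without TGF-β was 6.09 with siNC, 9.95 with pair 1 and 6.61 with pair 2, so the higher level with TGF-β was seen with each siRNA. With TGF-β 3 of the 7 genes reaching 5 FPKM (Has2, Sdc1 and Sdc3) were at least 2-fold higher under siNC, where 4.02% of all genes were, and 2 (Has2 and Sdc3) with pair 1 (4.46%) and pair 2 (4.86%).

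Sdc1 was at 419 FPKM with siNC, 184 with pair 1 and 330 with pair 2, and with TGF-β at 1038, 291 and 478 FPKM. Both pairs were below siNC at either treatment, and the siNC library with TGF-β stood above the other 5. With TGF-β this was 28.0% and 46.1% of siNC, and Sdc1 was the only 1 of the 7 genes reaching 5 FPKM that passed 2-fold with both pairs. None of the 7 did so without TGF-β. Of all 9094 genes 4.85% passed this limit with TGF-β (2.98% lower) and 5.28% without (3.05% lower). The Cuffdiff intervals of Sdc1 overlapped those of siNC in all 4 comparisons, that of siNC with TGF-β running from 224 to 1852 FPKM. The 2.48-fold ratio with to without TGF-β under siNC stood beside 1.58 and 1.45 with pairs 1 and 2 and beside 1.00 for the untransfected EpRas group means, which belong to the other table.

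Sdc3 was at 6.77, 7.69 and 11.6 FPKM with siNC, pair 1 and pair 2, and at 17.6, 28.0 and 38.8 FPKM with TGF-β. The pairs were above siNC at either treatment, and the ratio with to without TGF-β was 2.61, 3.64 and 3.34. Gpc1 was likewise higher with both pairs, at 140, 184 and 265 FPKM without and 190, 215 and 347 with TGF-β. Sdc4 was lower with TGF-β under each siRNA, at 123, 136 and 123 FPKM without and 107, 90.0 and 77.1 with TGF-β. Sdc2 stayed between 12.0 and 18.8 FPKM. Hspg2 separated the pairs, with 15.1 FPKM in siNC, 41.0 in pair 1 and 14.9 in pair 2 with TGF-β, and 24.3, 27.5 and 20.0 without. The summed basal markers were also higher with the pairs (237 and 365 FPKM without and 218 and 247 with TGF-β) than with siNC (109 and 152), as were the fibroblast markers given above. Their part in these differences was not tested.

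Bgn had 1 read with siNC, 13 with pair 1 and 18 with pair 2, and 18, 30 and 37 reads with TGF-β. The depth-adjusted ratio to siNC with TGF-β was 2.10 (95% exact interval 1.14 to 4.01) for pair 1 and 2.89 (1.61 to 5.40) for pair 2. Without TGF-β the ratios were 9.57 (1.44 to 407) and 14.2 (2.23 to 590), from a single read in siNC. The ratio with to without TGF-β was 10.3 (1.63 to 431) with siNC, again from a single untreated read, 2.27 (1.15 to 4.75) with pair 1 and 2.11 (1.17 to 3.95) with pair 2.

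As a secondary test, the 6 libraries were fitted together in limma with additive effects of knockdown and treatment, in which libraries of other conditions stand in for replicates. The TGF-β term passed for Has2 (log2 2.68 ± 0.27, adjusted p = 0.0111) and Sdc3 (1.55 ± 0.22, adjusted p = 0.0271), 2 of 7 genes against 2.5% of all. Neither held in every fit. The adjusted p of Has2 was 0.0831 without either siNC library, 0.0517 without pair 1 untreated and 0.0588 without pair 2 with TGF-β, and that of Sdc3 was between 0.0765 and 0.113 whichever library was left out. The knockdown term passed for 0 of 7 genes by limma and for 2.12% of all, with 3 of the 7 and 22.7% of all genes at an unadjusted p under 0.05. Its log2 value was -1.07 ± 0.29 for Has2 (adjusted p = 0.111), -1.12 ± 0.33 for Sdc1 (0.127) and 0.65 ± 0.24 for Sdc3 (0.183). With a separate term for each pair, the adjusted p was 0.0361 for Has2 and 0.0485 for Sdc1 (limma), where 4.63% of all genes passed. Of the 12 alternatives this was the only one in which either gene passed.

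**Figure D4:**
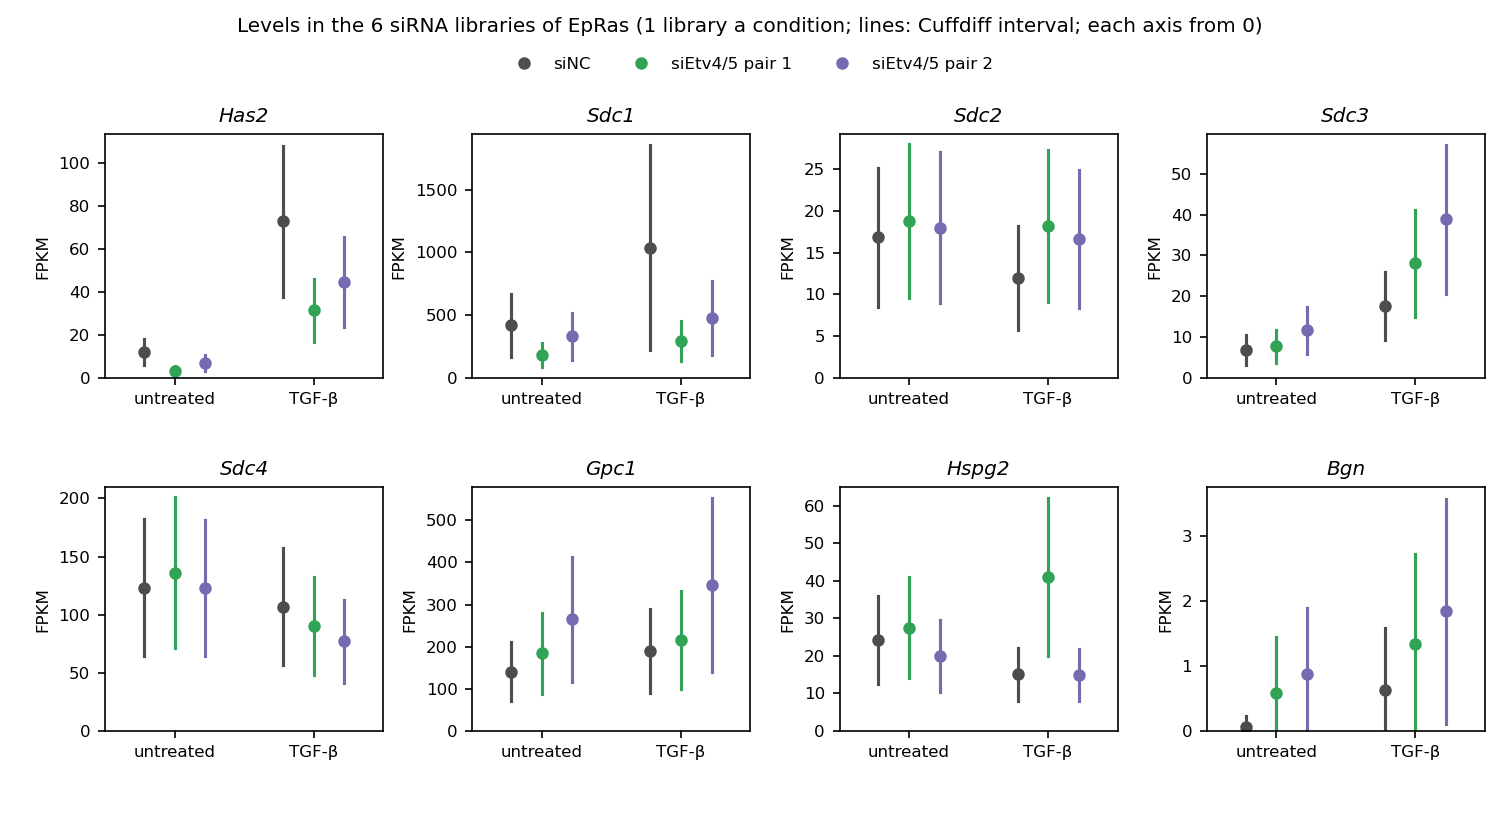
FPKM (vertical axes, linear, each starting at 0) of 8 of the genes in the 6 siRNA libraries of EpRas cells, without and with TGF-β; points are single libraries and lines are the intervals given by Cuffdiff. Has2 and Sdc1 were lower with both Etv4/5 siRNA pairs than with siNC, and most intervals overlapped.

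Other genes of hyaluronan and proteoglycan metabolism were followed as 5 lists with 126 rows, of which 51 reached 5 FPKM. Between the lines without TGF-β 10 of the 51 were higher and 7 lower in EpRas cells (8.45% and 9.11% of all genes), and with TGF-β 5 were higher and 10 lower (8.92% and 12.3%). TGF-β raised 8 and lowered 0 in EpH4 cells (6.48% and 2.91% of all genes), and raised 3 and lowered 1 in EpRas cells (1.9% and 1.92%). Of the genes that passed, 5 of 17 and 5 of 15 between the lines (Cd74, Acpl2, Hs6st2, Sulf1 and Csgalnact1), 2 of 8 with TGF-β in EpH4 cells (Sulf1 and Ust) and 2 of 4 in EpRas cells (Ust and Hs3st1) reached 5 FPKM only on the side where they were higher, so that their entry into the test rests on that side. These counts depend on the filter, the samples fitted and single libraries. The 17 became 11 and the 4 in EpRas cells 2 with a mean of at least 10 FPKM, and with only the groups compared the 15 became 9 and those 4 became 0. The 17 between the lines were 8 to 10 without any 1 of the 4 untreated libraries, and the 15 with TGF-β were 8 without EpH4 TGF-β replicate 1 or 2. For TGF-β in EpH4 cells the 8 became 4 and 3 without untreated replicate 1 or 2 and 2 and 3 without TGF-β replicate 1 or 2, and in EpRas cells the 4 became 0 and 1 without untreated replicate 1 or 2 and 2 without TGF-β replicate 1. In hyaluronan handling (8 genes tested) 1 gene passed between the lines, Cd44, the main hyaluronan receptor. Cd44 was at 26.4 and 28.9 FPKM in EpH4 and 61.5 and 64.1 in EpRas cells, and at 37.4 and 44.1 against 133 and 90.2 with TGF-β. The EpRas libraries were all above the EpH4 libraries, 2.27-fold without (adjusted p = 0.00999) and 2.74-fold with TGF-β (adjusted p = 0.00345, limma). In the same list Ugdh, which makes the UDP-glucuronic acid used for hyaluronan and sulfated chains, rose 1.95-fold with TGF-β in EpRas cells (adjusted p = 0.0263), and none passed in EpH4 cells.

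Of the 13 tested heparan sulfate enzymes, 3 were higher and 3 lower in EpRas cells without TGF-β, and 1 higher and 3 lower with TGF-β. Hs6st2, a 6-O-sulfotransferase, ranged from 9.01 to 10.5 FPKM in EpH4 cells and was listed at 0 in the 4 EpRas libraries, and Sulf1, which removes 6-O-sulfates at the cell surface, was at 2.44 to 7.18 FPKM and listed at 0. Both passed with and without TGF-β, with adjusted p between 1.21e-05 and 0.00032 (limma), as did Hs6st1, which was lower in EpRas cells (0.0276 and 0.00425). Sulf2, the related sulfatase, was higher in EpRas cells at both treatments (0.048 and 0.0164). Ext1 and Ext2, which together form the heparan sulfate polymerase, were higher in EpRas cells without TGF-β (1.46-fold and 1.70-fold, adjusted p = 0.0405 and 0.0301). Ext1 rose with TGF-β in EpH4 cells, from 24.9 and 27.4 to 82.1 and 75.7 FPKM (3.02-fold, adjusted p = 0.000761). Hs3st1, a 3-O-sulfotransferase, fell by 1.80 on the log2 scale with TGF-β in EpRas cells (adjusted p = 0.0217).

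Of the 15 tested chondroitin and dermatan sulfate enzymes, 3 were higher and 2 lower in EpRas cells without TGF-β and 2 higher and 3 lower with TGF-β. Csgalnact1, which starts chondroitin chains, was at 0.336 to 1.45 FPKM in the EpH4 and 10.1 to 48.7 FPKM in the EpRas libraries (29.9-fold between the means without TGF-β, adjusted p = 0.00457, limma). Hexa, a lysosomal hexosaminidase subunit, was at 59.6 to 66.7 FPKM in EpH4 and 10.5 to 14.8 in EpRas libraries. TGF-β raised 4 genes of this list in EpH4 cells and 2 in EpRas cells, where Ust, a uronyl 2-sulfotransferase, and Chsy1, a chondroitin synthase, passed in both lines. Ust rose 2.51-fold in EpH4 (adjusted p = 0.0102) and 2.55-fold in EpRas cells (0.016), and Chsy1 1.94-fold (0.0252) and 2.09-fold (0.0286). Between the lines without TGF-β, Galns, a lysosomal sulfatase, and Chpf2, a chondroitin polymerizing factor, were higher in EpRas cells (2.37-fold and 1.92-fold, adjusted p = 0.00692 and 0.0394). Chst12, a chondroitin 4-O-sulfotransferase, was lower in EpRas cells at both treatments (1.62-fold and 2.30-fold, adjusted p = 0.0334 and 0.0028). With TGF-β, Chst14, which sulfates dermatan, was 2.21-fold higher and Arsb, a lysosomal sulfatase, 1.75-fold lower in EpRas cells (adjusted p = 0.0382 and 0.0219). Chpf2 and Chst12 were the other two genes that rose with TGF-β in EpH4 cells (2.41-fold and 1.77-fold, adjusted p = 0.021 and 0.0252).

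Of the 10 linker and sulfate donor genes, 2 were higher and 1 lower without and 0 higher and 2 lower with TGF-β in EpRas cells. The 2 higher ones were B4galt7, a galactosyltransferase of the linker, and Slc35b2, a transporter of the sulfate donor (both 1.64-fold, adjusted p = 0.0229 and 0.0478, limma). Acpl2, a xylose phosphatase, was lower at both treatments (3.13-fold and 2.00-fold, adjusted p = 0.00586 and 0.0261), and B3gat3, a glucuronyltransferase of the linker, was 1.89-fold lower with TGF-β (0.0148). B4galt7 rose with TGF-β in EpH4 cells by 1.04 on the log2 scale (adjusted p = 0.00711).

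Among 5 tested core proteins beyond the 10 genes, Col18a1, a basement membrane collagen with heparan sulfate chains, was higher in EpRas cells, 3.03-fold without and 1.87-fold with TGF-β (adjusted p = 0.00161 and 0.0137, limma). Agrn, which encodes agrin of basement membranes, was 1.74-fold lower in EpRas cells with TGF-β (adjusted p = 0.022). Cd74, the invariant chain of class II antigen presentation, which exists in part as a proteoglycan, was at 5.18 and 5.41 FPKM in EpH4 cells and 35.1 and 38.9 with TGF-β, against 0.583 to 1.00 in the 4 EpRas libraries. The change of Cd74 with TGF-β differed between the lines by -2.65 on the log2 scale (adjusted p = 0.00608), and it was the 1 gene of the 51 that passed this test. This count was 0 without EpH4 TGF-β replicate 1 or 2, 2 with 5 FPKM added and 5 without a filter on low values.

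**Figure D5:**
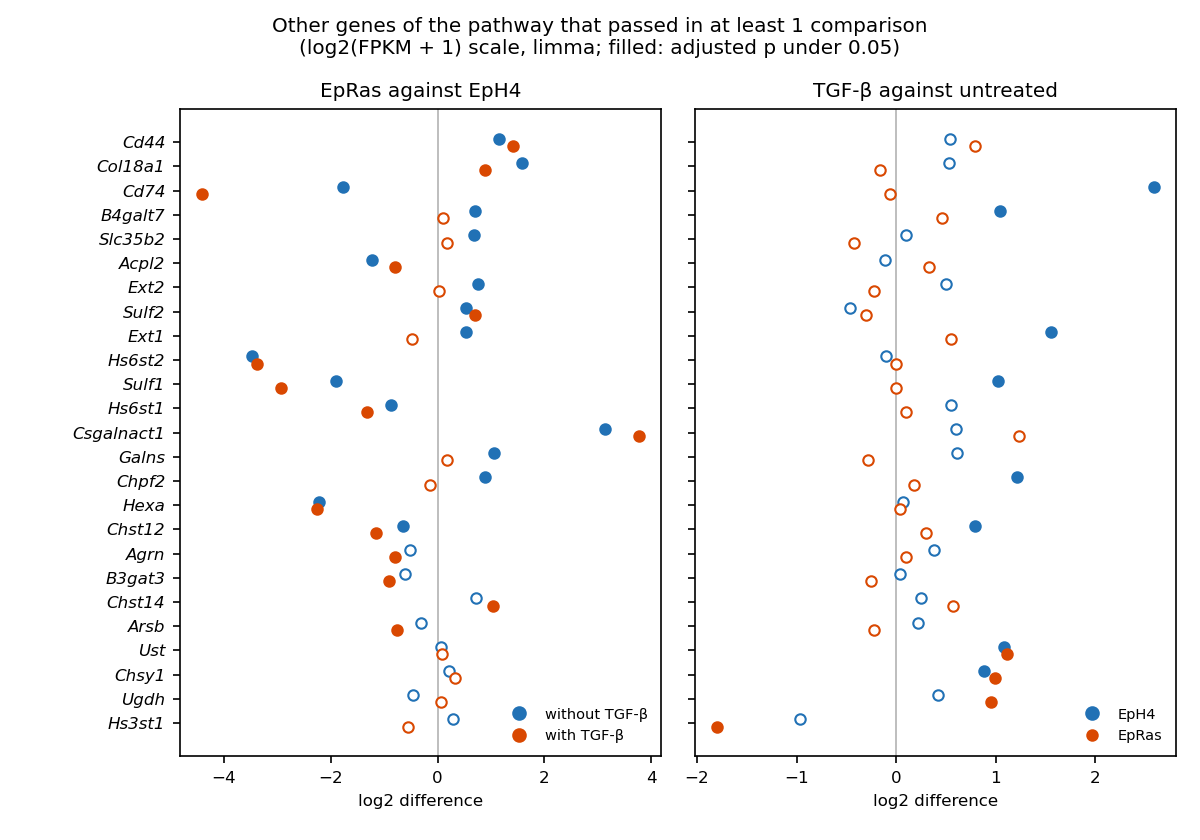
Difference on the log2(FPKM + 1) scale (horizontal axes) for the 25 other pathway genes that passed in at least 1 comparison; left, EpRas against EpH4 cells without (blue) and with (orange) TGF-β, and right, TGF-β against untreated in EpH4 (blue) and EpRas (orange); filled points passed an adjusted p of 0.05. Hs6st2, Sulf1, Hexa and Cd74 lay on the lower side and Csgalnact1 and Cd44 on the higher side in EpRas cells at both treatments.

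In the siRNA libraries 4 of the 50 pathway genes reaching 5 FPKM were at least 2-fold lower with both pairs without TGF-β, Cd44, Hyal1, Hs3st1 and Chpf2, against 3.05% of all genes. Cd44 was at 128 FPKM with siNC, 41.2 with pair 1 and 58.6 with pair 2, and with TGF-β at 179, 104 and 78.0 FPKM. The untransfected EpRas libraries were also below siNC for Cd44, at 61.5 and 64.1 FPKM without and 133 and 90.2 with TGF-β. Hyal1, a lysosomal hyaluronidase, had 10.3 FPKM with siNC, of which 29.7% and 14.6% were left with pairs 1 and 2, and 10.1 FPKM with siNC and TGF-β, of which 45.7% and 24.6% were left. Both transcripts were below siNC with each pair at either treatment, as Has2 was. With TGF-β, Hyal1 and Hs3st1 were at least 2-fold lower with both pairs, and B3galt6 and Chst12 at least 2-fold higher, where 1.87% of all genes were higher (2.23% without TGF-β, where 0 pathway genes were). The Hs3st1 values were 12.5, 3.14 and 2.50 FPKM in untreated cells, and those with TGF-β were 3.49, 0.132 and 0.660 FPKM. Hyal1 and Hs3st1 reached 5 FPKM only with siNC and B3galt6 only with the pairs, so that their entry into these counts rests on the side where they were higher. There is no replicate check for these ratios.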

How the data were processed

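RNA-seq was made of 14 mouse samples, 8 untransfected (4 groups of 2 libraries) and 6 transfected with siRNA (1 library a condition). Per the labels and the submitters' processing notes, mRNA was selected with oligo(dT) beads, sequenced directionally on the Ion Proton, aligned to mm10 with TopHat2 2.0.11 and Bowtie2 2.2.2.2, and quantified with Cufflinks 2.2.0 and Cuffdiff in 2 separate runs. The deposited values are FPKM, scaled by the authors to transcript length and library total, with the interval Cuffdiff gives each of them. FPKM is relative, so a rise of abundant genes lowers all others.

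Genes whose maximum reached 5 FPKM were tested (9100 and 9094) with limma 3.58.1 (R 4.3.3) on log2(FPKM + 1), 1 mean a group and no block, which understates changes of low genes. A call is an adjusted p under 0.05, after Benjamini-Hochberg adjustment across the genes that were tested. Fold values are ratios of mean FPKM. On simulated data of the comparison of TGF-β in EpH4 cells, the fit was tested before use. Genes without an OK status (3 and 2) were left out, and 0 value columns stayed unused. Whole reads came from the largest step fitting all libraries of a table, among the steps that the transcript length allows. The fit was to within 0.0055 of a read for Has2 and Bgn. The depth came from 93 and 48 genes with steps in keeping with transcript length. Read ratios have exact intervals (scipy 1.17.1).

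All 10 genes were named, and other pathway genes were named if they were among the 4 with the largest change per direction, list and comparison that passed. Acpl2 is an older symbol of Pxylp1. The genes and lists were chosen with earlier results of these data known. Alternatives changed the added value, the filter, the samples fitted, the scaling, the spread prior and the block, and left out each library in turn.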

Additional observations from a re-analysis of the deposited data

Results flagged for a closer look

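Gpc1 and Hspg2 stood out in the untransfected libraries. Every library with TGF-β lay above every untreated library in EpH4 cells and below them in EpRas cells. This held for 2.65% of the 9100 genes tested. The change in EpRas minus that in EpH4 cells was -0.88 on the log2 scale for Gpc1 (limma, adjusted p = 0.423, unadjusted p = 0.0402) and -0.93 for Hspg2 (adjusted p = 0.318, unadjusted p = 0.0164). Neither difference passed the test over all genes. In the siRNA libraries of EpRas cells Gpc1 was higher with TGF-β under each siRNA. Its ratio with to without TGF-β was 1.36 with siNC, 1.17 with pair 1 and 1.31 with pair 2. That of Hspg2 was 0.622, 1.49 and 0.748 in the same order. No group had the 4 or more libraries needed to look for single libraries that stand apart.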

How the results depend on the processing

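Has2 and Sdc3 kept the direction of their TGF-β change in both lines under all alternatives, and the call as well except in EpRas cells when only the groups compared were fitted. That fit left 0 genes for TGF-β in EpRas cells (3 in the fit over all groups) and 1 between the lines with TGF-β (3). The share of all genes passing in that fit is not at hand, so these counts do not tell whether other genes lost calls alike. In the siRNA libraries the TGF-β term passed for 0 genes without a filter on low values (0.461% of all genes) and the knockdown term for 2 with a term for each pair (4.63% of all genes). With a 1.5-fold limit the siRNA counts were 1 without and 3 with TGF-β (16.4% and 14.4% of all genes), and with the mean of the pairs 1 without TGF-β (9.07%). The difference in the Has2 change between the lines was 0.0535 with 5 FPKM added and 0.0317 after quantile normalization, and the Sdc1 change with TGF-β in EpRas cells was -0.00498 with equal medians, values near 0 throughout.

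Each library was also left out in turn, which left 1 library in a group or none in an siRNA condition. Calls were lost in some of these fits, as given above for Gpc1, Hspg2, Sdc1 and Sdc4. Counts of such calls are not given here, as the share of all genes passing in the same fits is not at hand. Between the lines without TGF-β the log2 difference then ranged from -0.65 to 0.0232 for Sdc1, -0.0128 to 0.24 for Sdc2, -0.29 to 0.0531 for Sdc4 and -0.12 to 0.21 for Hspg2, and with TGF-β from -0.20 to 0.54 for Has2 and -0.0548 to 0.60 for Gpc1. The TGF-β change in EpRas cells ranged from -0.33 to 0.34 for Sdc1 and -0.35 to 0.0801 for Sdc2. The difference between the lines in the Has2 change with TGF-β ranged from -0.41 to 0.33. In the siRNA libraries Hspg2 ranged from -0.63 to 0.17 (TGF-β term) and -0.0498 to 0.68 (knockdown term), and Sdc4 from -0.36 to 0.0703 (knockdown term). None of these passed in the fit over all libraries, and the cause was not tested.

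Replicate numbers did not pair the samples (correlations of deviations -0.35 to 0.08). With the replicate block, 2 genes passed in each of the 4 line and TGF-β comparisons and 0 for the difference. The calls lost were those of Sdc1 between the lines with TGF-β (adjusted p = 0.0753) and of Sdc4 for TGF-β in EpRas cells (0.0696), and the 17 other pathway genes between the lines without TGF-β became 9. Over all genes the block gave 1121, 1520, 547, 222 and 31 calls, in place of 1598, 1935, 855, 348 and 73. A crossed pairing, with the numbers of the untreated EpRas libraries exchanged and chosen after seeing the data, gave 1702, 2149, 872, 363 and 69. Depth limits Bgn, which had 1 to 37 reads, and Vcan and Dcn, for which reads were not recovered.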
